A study of Mus musculus with 18 samples.

Results

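The genes described here are 10 interferon-inducible GTPases of the mouse, measured by RNA sequencing in CD8 T cells with and without Dock2. They comprise 4 immunity-related GTPases (IRG: Igtp, Irgm1, Irgm2 and Iigp1) and 6 guanylate-binding proteins (GBP: Gbp2, Gbp3, Gbp4, Gbp6, Gbp7 and Gbp9). They were found by symbol among the 46983 gene rows of the deposited table. The 10 symbols gave 11 rows, because the table calls a second identifier Gbp6 as well. All 11 rows passed the filter on low values (10 or more in 4 or more libraries), which kept 9437 genes.

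The study profiled CD8 T cells sorted by surface CD44 from both genotypes: CD44-high cells of memory phenotype and CD44-low naive cells. Dock2 is a guanine nucleotide exchange factor for Rac that lymphocytes need for migration. Dock2-deficient mice, which carry 2 copies of the Hsd allele (Dock2-Hsd/Hsd, also written Dock2-/-), gave 5 memory and 5 naive libraries, and wild-type (WT) mice gave 4 memory and 4 naive libraries. The mice were untreated and no age was stated. Every library has C57BL/6J as its strain, but C57L6NHsd appears in the description of each Dock2-deficient library, so substrain and genotype cannot be told apart. Nothing in the labels said that the libraries of a group came from separate animals, and the p-values cover the spread between libraries alone, which may be technical.

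IRG and GBP proteins are large GTPases that cells make mostly in response to interferon-gamma, and in part to type I interferon. Interferon-gamma signals to genes through the gamma-activated sequence (GAS), and it raises IRF1, which binds the interferon-stimulated response element (ISRE). In macrophages and other infected cells the effector GTPases coat vacuoles that hold parasites or bacteria, while the IRGM proteins sit on the cell's own membranes and hold the effectors in check. Mouse Irgm1 is also known for its part in the survival of T cells exposed to interferon-gamma.

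Promoter sequences of 6 of the 10 genes were taken from a RefSeq table (build GRCm38.p6). Those of Iigp1, Gbp4, Gbp6 and Gbp9 were not examined. The 6 sequences are shown for the interferon motifs that lie before the transcription start. The letters below are the 150 bases before the RefSeq start, 5′ to 3′ on the strand of the gene, with capitals for each match to GAAA, any 2 bases and GAAA in a row (ISRE) or to TTCNNNGAA (GAS) on either strand. Overlapping matches run together.
Igtp (chr11:58199406-58199555, plus strand): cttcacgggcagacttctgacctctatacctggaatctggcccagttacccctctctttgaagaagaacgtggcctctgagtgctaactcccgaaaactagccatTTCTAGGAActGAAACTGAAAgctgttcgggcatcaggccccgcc
Irgm2 (chr11:58214827-58214976, plus strand): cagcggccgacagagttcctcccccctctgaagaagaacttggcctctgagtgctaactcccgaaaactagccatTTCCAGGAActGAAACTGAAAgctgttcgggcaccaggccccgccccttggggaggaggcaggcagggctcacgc
Irgm1 (chr11:48871421-48871570, minus strand): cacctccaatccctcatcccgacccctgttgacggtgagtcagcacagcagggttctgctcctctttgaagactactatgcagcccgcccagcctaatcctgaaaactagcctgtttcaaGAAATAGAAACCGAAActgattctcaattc
Gbp2 (chr3:142620513-142620662, plus strand): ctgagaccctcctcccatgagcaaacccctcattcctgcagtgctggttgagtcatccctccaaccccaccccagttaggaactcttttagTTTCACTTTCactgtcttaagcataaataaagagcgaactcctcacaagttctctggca
Gbp7 (chr3:142530186-142530335, plus strand): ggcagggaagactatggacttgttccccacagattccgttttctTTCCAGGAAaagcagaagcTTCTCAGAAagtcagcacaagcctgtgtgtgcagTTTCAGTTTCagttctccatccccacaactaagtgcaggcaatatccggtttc
Gbp3 (chr3:142559894-142560043, plus strand): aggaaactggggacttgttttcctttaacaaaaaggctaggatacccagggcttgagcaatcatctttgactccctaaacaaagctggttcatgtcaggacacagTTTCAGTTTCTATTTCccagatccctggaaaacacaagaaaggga

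In the 250 bases before the start, all 6 examined genes held an ISRE match, against 2.98% of 32851 mouse promoters of the same length. A GAS match was found before Igtp, Irgm2 and Gbp7, against 7.02% of those promoters, and 0.332% of promoters held both motifs. In Igtp the GAS match lay at -45 to -37 and the ISRE match at -34 to -25, counted in bases from the start. Irgm2 held the same pair in the same order at -75 to -67 and -64 to -55. The printed stretches of Igtp and Irgm2 were identical at 85.8% of 120 aligned bases, so these 2 promoters are not independent examples. Irgm1 had a pair of overlapping ISRE matches at -30 to -21 and -24 to -15, and Gbp3 had another such pair at -45 to -36 and -39 to -30. Gbp3 had a second RefSeq start, whose window held neither motif. A match describes letters only and says nothing of whether a factor was bound.

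**Figure D1:**
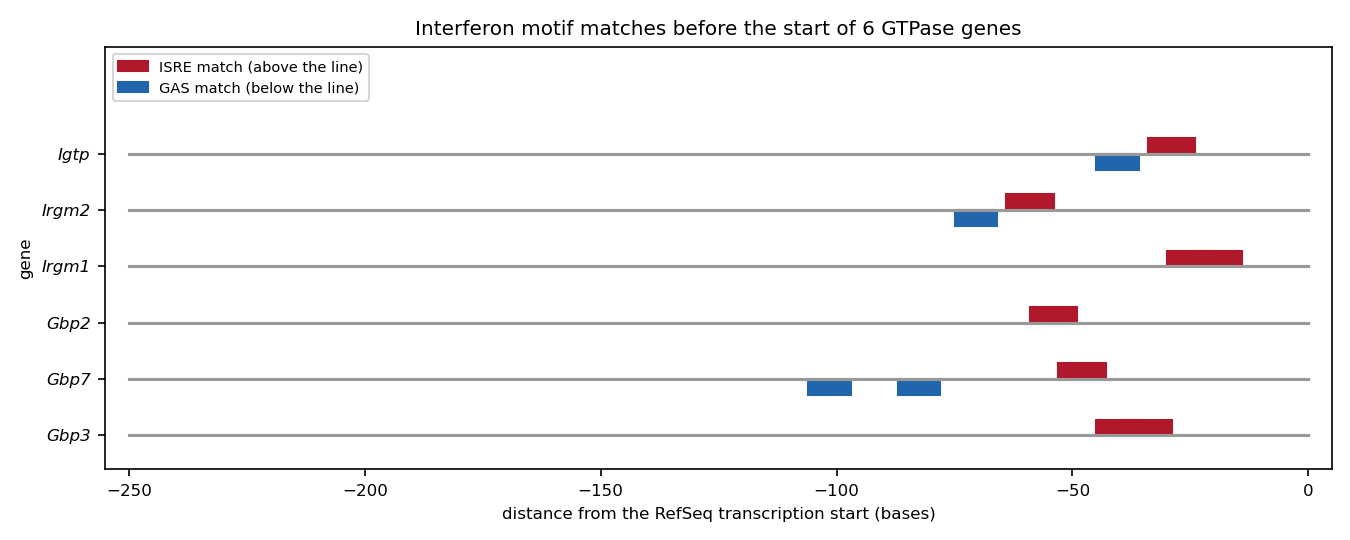
Positions of ISRE matches (red, above each line) and GAS matches (blue, below) in the 250 bases before the RefSeq start of 6 GTPase genes; the x axis is the distance from the start in bases. All 6 lines carry an ISRE match within 64 bases of the start, and Igtp, Irgm2 and Gbp7 also carry GAS matches.

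The genes lie on 4 chromosomes (mm10). Igtp (chr11:58199556-58207591, plus strand) and Irgm2 (chr11:58199618-58222782, plus strand) overlap and share 162 exon bases, and Irgm1 (chr11:48861968-48871683, minus strand) lies elsewhere on chromosome 11. Iigp1 is on chromosome 18. Gbp7 (chr3:142530342-142550149), Gbp3 (chr3:142560026-142573209) and Gbp2 (chr3:142620602-142638008) form a cluster on the plus strand of chromosome 3. Gbp9 (chr5:105077630-105139539), Gbp4 (chr5:105115767-105139586) and Gbp6 (chr5:105270702-105293698) form a cluster on the minus strand of chromosome 5. Values of overlapping or near-identical genes are uncertain, since RSEM, the tool named in the submitters' processing notes, shares out such reads as estimates. The second row called Gbp6 shared 81.6% of its exon bases with neighbouring genes, 1726 of them with Gbp6 itself. It was at 0 in all 5 Dock2-deficient memory libraries, at 0 in 4 of 5 Dock2-deficient naive libraries, and between 0 and 29.3 in WT libraries, with no call in any comparison. It is left out of the counts of the 10 genes.

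The values are the authors' normalized expected counts. Depth, read back from the table, was 2215987 to 8257768 expected reads per library. Genes whose symbols start with Rn, a number and s, such as the ribosomal RNA gene Rn18s-rs5, took 37.0% to 69.4% of these reads. Dock2 stood between 61.03 and 279.6 in Dock2-deficient memory libraries against 399.7 to 844 in WT memory libraries, and between 171 and 373 in Dock2-deficient naive libraries against 288 to 514 in WT naive libraries. Neither difference in Dock2 passed the test (adjusted p = 0.121 in memory cells and 0.841 in naive cells, limma), and a gene-level value checks the labels only in part. The CD44 gene matched the sort in both genotypes: it was at 172 to 222 in Dock2-deficient memory libraries against 0 to 21.7 in Dock2-deficient naive libraries, and at 124 to 220.4 in WT memory libraries against 3.39 to 9.78 in WT naive libraries. By Xist and Y-linked genes, all 8 WT libraries read as female, while 1 of 5 Dock2-deficient libraries in each cell state read as female and 4 as male. Sex is therefore largely confounded with genotype. WT memory library 4 and Dock2-deficient memory library 5 stood apart from the others on the first 2 principal components.

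Levels were compared between genes per kilobase of the longest protein-coding transcript. On that scale Igtp, an IRGM protein of the endoplasmic reticulum and lipid droplets also called Irgm3, had the highest mean in all 4 groups. It averaged 81.7 ± 21.4 per kilobase in Dock2-deficient memory cells and 153 ± 23.6 in Dock2-deficient naive cells (SD, n = 5 each). In WT cells it averaged 47.8 ± 8.08 per kilobase in memory and 69.1 ± 15.3 in naive libraries (SD, n = 4 each). In Dock2-deficient naive cells Igtp stood clear of the next gene, Gbp6 at 79.1 ± 16.2 per kilobase. In WT memory cells it did not differ beyond the spread from Gbp6 (46.4 ± 7.20) or Irgm1 (45.6 ± 6.57). Below these, in Dock2-deficient naive cells, came Irgm1 (78.5 ± 16.9), Gbp2 (60.9 ± 13.0), Gbp4 (53.9 ± 7.42), Gbp9 (41.4 ± 13.1), Irgm2 (38.8 ± 22.4) and Gbp7 (22.5 ± 4.26). Neighbours in this order differed by no more than the larger of their SDs, apart from Irgm1 and Gbp2. Iigp1 and Gbp3 were the lowest of the 10 genes in every group, at 11.3 ± 5.31 and 7.95 ± 2.85 per kilobase in Dock2-deficient naive cells.

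**Figure D2:**
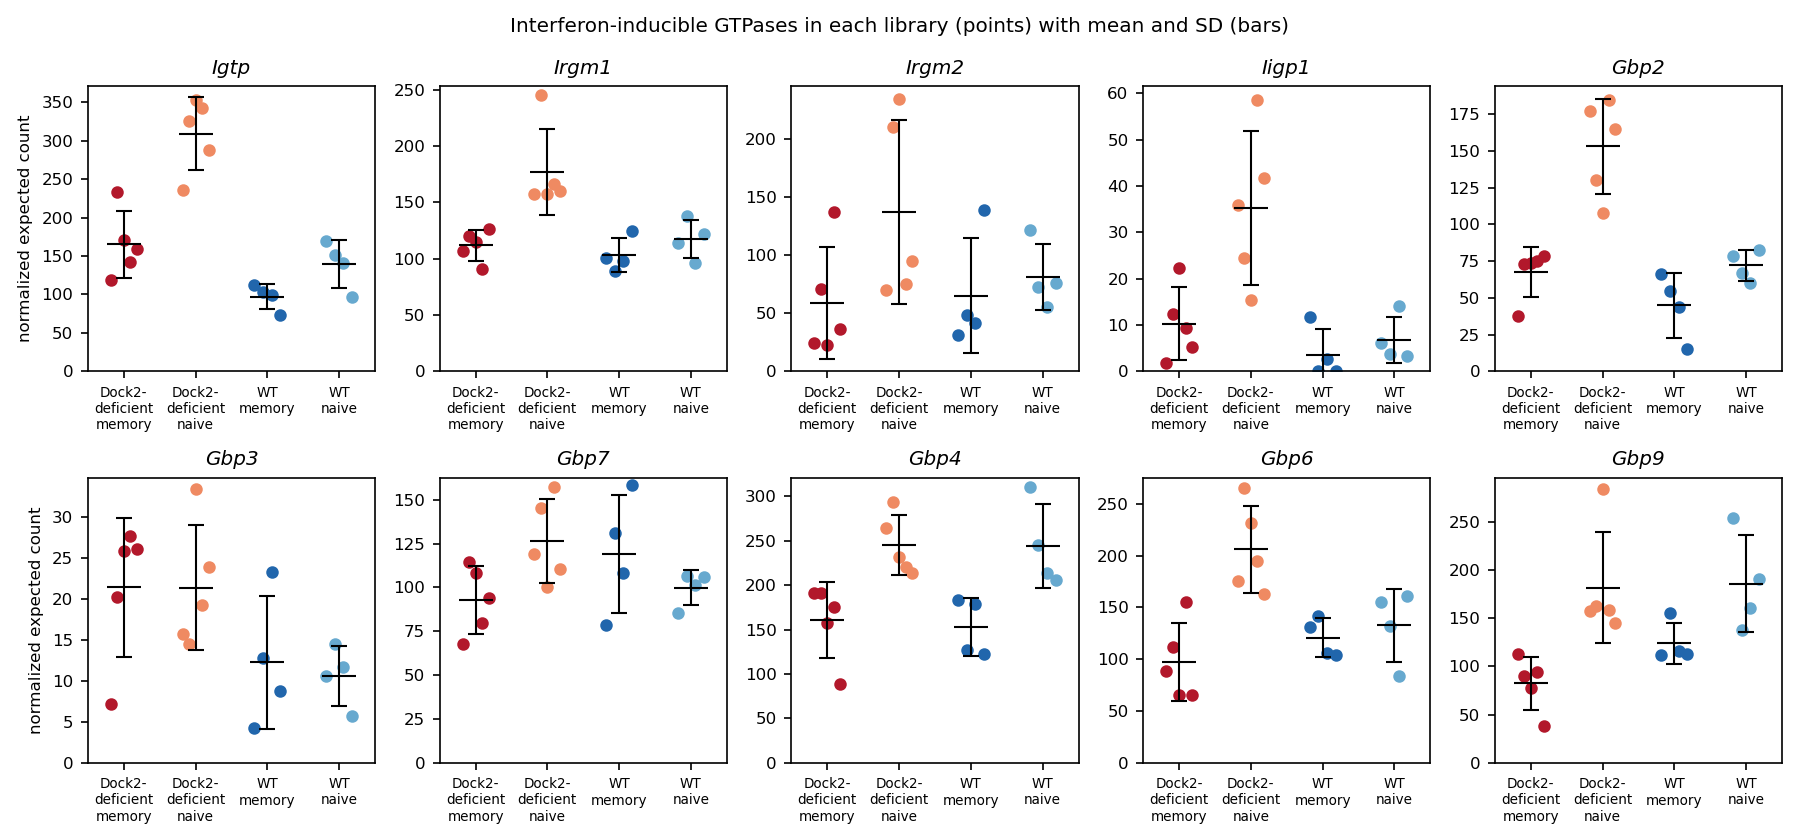
Normalized expected count (y axis) of each of the 10 GTPases in each library (points), with the mean and SD of the group (bars), for Dock2-deficient memory, Dock2-deficient naive, WT memory and WT naive cells. Dock2-deficient naive cells have the highest mean for Igtp, Irgm1, Irgm2, Iigp1, Gbp2, Gbp6 and Gbp7, while the means of Gbp4 and Gbp9 in the 2 naive groups lie within the SD.

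In naive cells the question was how the level of these genes differs between Dock2-deficient and WT mice. Igtp was 2.23-fold higher in Dock2-deficient than in WT naive cells, and 4 more GTPases had every Dock2-deficient library above every WT library without passing the test. Gbp4 and Gbp9 did not follow them. Here and below a gene was called at a Benjamini-Hochberg adjusted p under 0.05 over all 9437 genes in limma, on the log2(value + 1) scale, where fold changes of low genes come out too small.

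Igtp stood at 237, 326, 354, 343 and 288 in Dock2-deficient naive libraries 1 to 5, against 170.1, 151, 141 and 97.2 in WT naive libraries 1 to 4. The lowest Dock2-deficient library was above the highest WT library. The log2 fold change was 1.16 ± 0.22 (SE; adjusted p = 0.0279), and Igtp ranked 11 among all genes by p. It was the only 1 of the 10 GTPases called, where 0.127% of all genes were called higher. The call was lost without any of Dock2-deficient naive libraries 2 to 5 or WT naive libraries 2 to 4, with adjusted p between 0.0652 and 0.128, and the log2 fold change was 0.99 without WT naive library 4. With a term for sex the log2 fold change of Igtp was 0.75 (adjusted p = 0.999), a fit that rests on the single Dock2-deficient library of each cell state that reads as female.

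Irgm1, the IRGM protein of the Golgi and lysosomes, stood at 157, 245, 157, 166 and 160.3 in Dock2-deficient naive libraries, against 113, 137, 96.4 and 122 in WT naive libraries. No value was shared between the ranges, but the log2 fold change of 0.58 ± 0.19 was not called (adjusted p = 0.469). Iigp1, an effector IRG that coats the vacuole of Toxoplasma, stood at 35.8, 24.5, 15.4, 58.6 and 41.8 in Dock2-deficient naive libraries, against 6.06, 3.62, 14.0 and 3.39 in WT naive libraries. Again every Dock2-deficient library was above every WT library. The log2 fold change of Iigp1 was 2.28 ± 0.72 (adjusted p = 0.440), the highest of the 10 genes. Irgm2, the third IRGM protein, ranged from 70.1 to 234 in Dock2-deficient naive libraries and from 55.3 to 121 in WT naive libraries, and the groups overlapped (0.61 ± 0.51, adjusted p = 0.963).

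Among the GBPs, Gbp2, which is recruited to Toxoplasma vacuoles and needed to control them in mice, stood at 177, 130.4, 108.0, 184 and 165 in Dock2-deficient naive libraries, against 78.7, 66.9, 60.1 and 82.4 in WT naive libraries. Every Dock2-deficient library was above every WT library, with a log2 fold change of 1.06 ± 0.33 that was not called (adjusted p = 0.440). Gbp6, also found on Toxoplasma vacuoles in mouse cells, stood at 176, 265, 232, 195 and 163 in Dock2-deficient naive libraries, against 155, 132, 83.4 and 161 in WT naive libraries. The gap between the lowest Dock2-deficient and the highest WT library was small, and the log2 fold change of 0.65 ± 0.26 was not called (adjusted p = 0.677). Gbp3 and Gbp7, neighbours of Gbp2, had log2 fold changes of 0.95 ± 0.46 and 0.32 ± 0.22 with overlapping groups.

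Gbp4 averaged 245 ± 33.7 in Dock2-deficient naive cells (SD, n = 5) and 244 ± 47.3 in WT naive cells (SD, n = 4). Its log2 fold change was 0.01, with a 95% interval of -0.46 to 0.49. Gbp9 averaged 182 ± 57.5 in Dock2-deficient naive cells and 186 ± 50.4 in WT naive cells, a log2 fold change of -0.04 with an interval of -0.62 to 0.53. Changes inside these intervals were not detectable for either gene. Gbp4 and Gbp9 are neighbours with overlapping exons on chromosome 5.

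In all, 9 of the 10 GTPases had a log2 fold change above 0 in naive cells, with a median of 0.63 against 0.00 over all genes. The 5 with groups that did not overlap compare with 1.46% of all genes that were higher without overlap, and the same 5 had an unadjusted p under 0.05, against 3.14% of all genes higher at that level. In Dock2-deficient naive library 1, which reads as female like every WT library, 7 of the 10 GTPases were above all 4 WT naive libraries, against 16.3% of all genes. Igtp was at 237 there, against at most 170.1 in WT naive libraries and 288 to 354 in the other Dock2-deficient naive libraries. This is 1 library, and it cannot separate sex from genotype.

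In memory cells the same genotype comparison gave no call among the 10 GTPases, where 0.053% of all genes were called in either direction, and 4 had an unadjusted p under 0.05, against 16.4% of all genes. Igtp stood at 119, 234, 171, 142 and 159 in Dock2-deficient memory libraries, against 112, 103, 98.9 and 73.6 in WT memory libraries. It was the only 1 of the 10 whose groups did not overlap, where 2.06% of all genes were higher without overlap, and its log2 fold change was 0.75 ± 0.22 (adjusted p = 0.228). Gbp2 (0.71 ± 0.33, adjusted p = 0.301) and Iigp1 (1.78 ± 0.72, adjusted p = 0.269) had log2 fold changes above 0, while Gbp9 was at -0.65 ± 0.28 (adjusted p = 0.283). Without WT memory library 4 the value of Gbp2 was 0.26. The other log2 fold changes were 0.84 ± 0.46 for Gbp3, -0.34 ± 0.22 for Gbp7, -0.37 ± 0.26 for Gbp6 and -0.24 ± 0.51 for Irgm2. Irgm1 was at 0.12 ± 0.19 and Gbp4 at 0.05 ± 0.23, and both turned negative after each library was rescaled to the same total. The median over the 10 genes was 0.08, against 0.01 over all genes. That rescaling moved the median of all genes in this comparison to -0.27, with the 10 GTPases at -0.21. In Dock2-deficient memory library 1, the female one, 2 of the 10 were above and 3 below all 4 WT memory libraries, against 22.2% and 21.6% of all genes.

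The next question was how these genes differ between memory-phenotype and naive cells of the same genotype. In Dock2-deficient mice 4 of the 10 GTPases, Igtp, Gbp2, Gbp6 and Gbp9, fell in memory against naive cells. No gene of the 10 was called higher, and 10 of 10 had a log2 fold change below 0. Over all genes 1.05% were called lower and 1.77% higher in this comparison.

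Igtp stood at 119, 234, 171, 142 and 159 in Dock2-deficient memory libraries, against 237, 326, 354, 343 and 288 in Dock2-deficient naive libraries. Memory library 2 came within a few units of naive library 1, but every memory library was below every naive library. The log2 fold change of Igtp was -0.92 ± 0.21 (SE; adjusted p = 0.0117).

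Gbp6 stood at 88.5, 112, 65.7, 155 and 65.6 in Dock2-deficient memory libraries, against 176, 265, 232, 195 and 163 in Dock2-deficient naive libraries. Its log2 fold change was -1.13 ± 0.24 (adjusted p = 0.00949), the lowest adjusted p of the 10. Gbp9, another GBP of the chromosome 5 cluster that is recruited to Toxoplasma vacuoles in mouse cells, stood at 113, 89.6, 77.4, 94.0 and 38.2 in Dock2-deficient memory libraries, against 157, 162, 284, 159 and 145 in Dock2-deficient naive libraries. Neither gene's groups overlapped. Gbp9 had a log2 fold change of -1.17 ± 0.26 (adjusted p = 0.0127). The calls of Igtp, Gbp6 and Gbp9 held without any single library of the 18.

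Gbp2 stood at 37.3, 72.9, 73.9, 74.9 and 78.7 in Dock2-deficient memory libraries, against 177, 130.4, 108.0, 184 and 165 in Dock2-deficient naive libraries. All memory libraries were below all naive libraries. The log2 fold change was -1.19 ± 0.31 (adjusted p = 0.0446). With 1 library removed at a time, the call held in 5 of 18 fits: those without Dock2-deficient memory library 4, Dock2-deficient naive library 3, or WT memory library 1, 2 or 4. In the others the adjusted p was up to 0.116, the value without Dock2-deficient memory library 1, which had the lowest level, and the lowest adjusted p was 0.00319, without WT memory library 4. With genotype and replicate number together as a block, which pairs same-numbered naive and memory libraries, the adjusted p of Gbp2 was 0.0876.

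Irgm1 stood at 107, 119.8, 115, 91.1 and 126 in Dock2-deficient memory libraries, against 157, 245, 157, 166 and 160.3 in Dock2-deficient naive libraries, without overlap. Its log2 fold change of -0.65 ± 0.18 just missed the threshold (adjusted p = 0.0555), and it was called without the 2 libraries that stood apart (adjusted p = 0.0443), without WT memory library 4 alone (0.0456), at a mean of at least 50 (0.0341), with array weights (0.0407) and after rescaling to the same total (0.00849). Gbp4 stood at 191, 191, 157, 175 and 89.1 in Dock2-deficient memory libraries, against 264, 294, 232, 220.3 and 214 in Dock2-deficient naive libraries. Its groups did not overlap either, with a log2 fold change of -0.64 ± 0.21 (adjusted p = 0.140). Iigp1 (-1.89 ± 0.68, adjusted p = 0.194) and Irgm2 (-1.37 ± 0.48, adjusted p = 0.175) had the most negative log2 fold changes of the 10 but wide errors. Without Dock2-deficient memory library 4, Irgm2 was called at -1.76 (adjusted p = 0.0315). Gbp7 was at -0.45 ± 0.21 (adjusted p = 0.363) and Gbp3 at -0.06 ± 0.43 (adjusted p = 0.968). The 6 genes whose groups did not overlap compare with 1.58% of all genes that were lower without overlap, and the median of the 10 was -1.03 against -0.01 over all genes. After rescaling to the same total, the median of all genes was -0.31 and that of the 10 was -1.34, and 98 genes were called higher and 157 lower, against 167 higher and 99 lower before.

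In WT mice the same comparison gave no call among the 10 GTPases, where 2.52% of all genes were called in either direction. With limma, 3 of the 10 had an unadjusted p under 0.05, all of them lower in memory cells, against 5.29% of all genes. Gbp4 stood at 183, 127, 179 and 122 in WT memory libraries, against 310.1, 245, 214 and 206 in WT naive libraries. It was the only 1 of the 10 whose groups did not overlap, where 3.27% of all genes were lower without overlap, and its log2 fold change was -0.68 ± 0.24 (adjusted p = 0.183). Gbp2 was at 66.3, 54.8, 43.8 and 14.9 in WT memory libraries, against 78.7, 66.9, 60.1 and 82.4 in WT naive libraries, and memory library 4 was low (-0.84 ± 0.35, adjusted p = 0.315; -0.39 without that library). Igtp was at 112, 103, 98.9 and 73.6 in WT memory libraries, against 170.1, 151, 141 and 97.2 in WT naive libraries, with naive library 4 inside the memory range (-0.51 ± 0.23, adjusted p = 0.363). Over the 10 genes, 8 had a log2 fold change below 0, with a median of -0.51 against -0.02 over all genes. Those not yet given were Iigp1 (-1.39 ± 0.76), Gbp9 (-0.56 ± 0.29), Irgm2 (-0.51 ± 0.54), Irgm1 (-0.18 ± 0.20) and Gbp6 (-0.10 ± 0.27). Gbp7 (0.21 ± 0.24) and Gbp3 (0.04 ± 0.49) were above 0.

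Whether the difference between memory and naive cells itself differed between genotypes was tested as an interaction, Dock2-deficient minus WT. No GTPase was called in limma, where 0.0318% of all genes were, and 2 had an unadjusted p under 0.05, against 5.21% of all genes. Gbp6 had the lowest p of the 10, with a log2 difference of -1.02 ± 0.37 (adjusted p = 0.819). It averaged 97.4 ± 37.6 in Dock2-deficient memory cells and 206 ± 42.1 in Dock2-deficient naive cells (SD, n = 5 each), and 121 ± 18.8 in WT memory cells and 133 ± 35.1 in WT naive cells (SD, n = 4 each). Gbp7, linked in mouse macrophages to assembly of the NADPH oxidase, was at -0.66 ± 0.32 (adjusted p = 0.819). The other log2 differences were -0.41 ± 0.31 for Igtp, -0.46 ± 0.27 for Irgm1, -0.86 ± 0.72 for Irgm2 and -0.50 ± 1.02 for Iigp1. Among the other GBPs they were -0.35 ± 0.47 for Gbp2, -0.11 ± 0.65 for Gbp3, 0.03 ± 0.32 for Gbp4 (-0.25 after rescaling) and -0.61 ± 0.39 for Gbp9. The interaction was below 0 for 9 of the 10 genes, with a median of -0.48 against 0.01 over all genes. The larger number of calls in Dock2-deficient mice is therefore not shown to be a difference between genotypes for any of these genes.

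**Figure D3:**
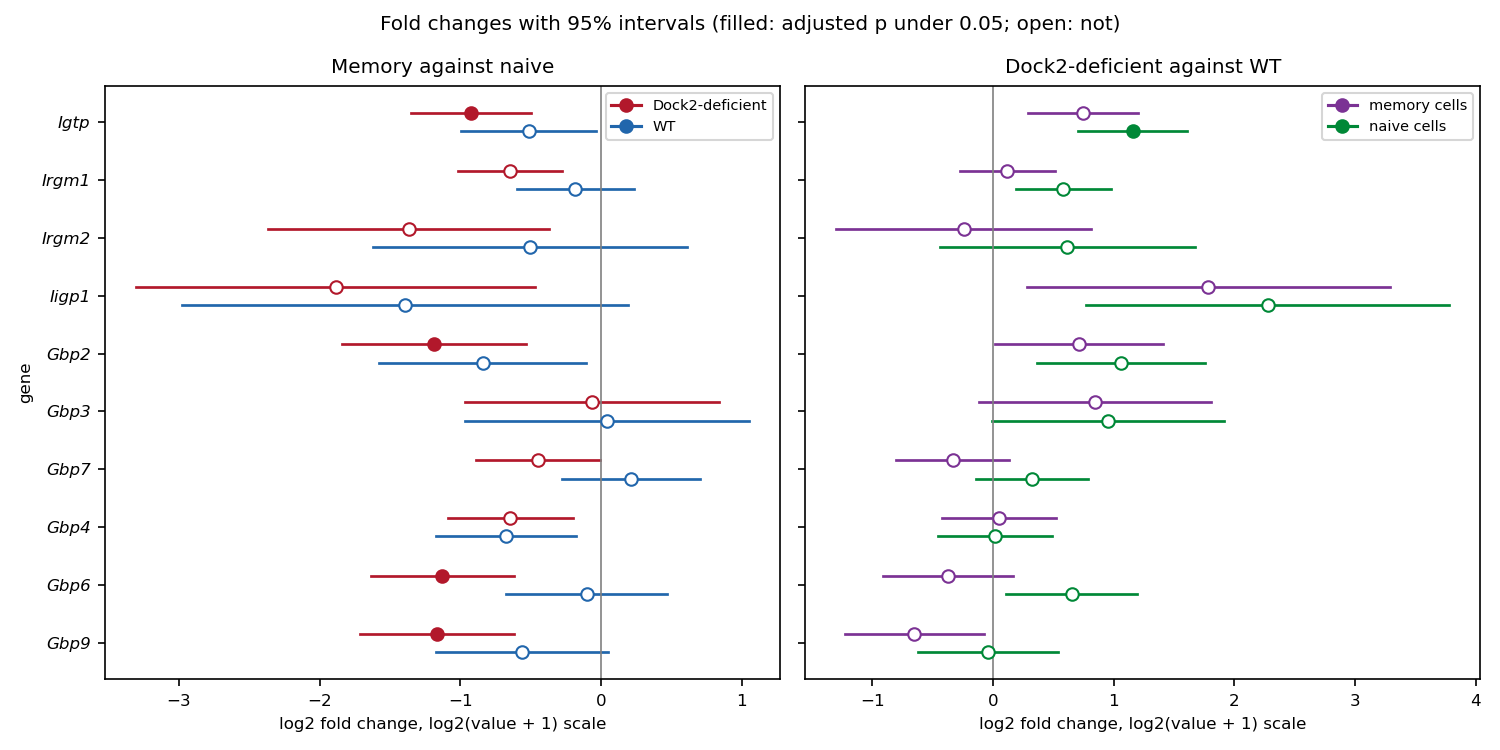
Log2 fold changes of the 10 GTPases on the log2(value + 1) scale (x axis) with 95% intervals, memory against naive on the left and Dock2-deficient against WT on the right; filled points have an adjusted p under 0.05. Filled points are Igtp, Gbp2, Gbp6 and Gbp9 in Dock2-deficient mice on the left, and Igtp in naive cells on the right.

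Among genes of the interferon-gamma signal, the receptor chains moved in opposite directions between cell states in both genotypes. Ifngr1, the chain that binds interferon-gamma, rose in memory cells by a log2 fold change of 1.70 in Dock2-deficient and 1.54 in WT mice. Ifngr2, the chain needed for signalling, fell, with log2 fold changes of -4.34 in Dock2-deficient and -3.83 in WT mice (limma, adjusted p = 9.34e-06 and 0.000178). It averaged 1.27 in memory against 35.8 in naive cells of Dock2-deficient mice, and 1.69 against 37.1 in WT mice. With memory values this near 0 the size is uncertain: alternatives other than single libraries left out gave -4.99 to -2.71 and -4.15 to -2.61. Ifng itself was called higher in WT memory cells (3.53 ± 0.87, adjusted p = 0.0278), a call lost without any of the 4 WT memory libraries or WT naive library 1 or 2 (adjusted p up to 0.0950). Its WT means were 17.3 ± 7.44 in memory and 0.632 ± 0.738 in naive cells (SD, n = 4 each). In Dock2-deficient mice Ifng was not called, at 15.1 ± 13.3 in memory against 1.42 ± 1.37 in naive cells (SD, n = 5 each). Ptpn2, a phosphatase that dampens JAK and STAT signalling, was called higher in Dock2-deficient memory cells (log2 fold change 0.98, adjusted p = 0.0473), a call that held in 6 of 18 fits without a library. Between genotypes in naive cells, Irf1, which binds ISRE and is named for that role after its values were seen, had a log2 fold change of 0.58 ± 0.25 (adjusted p = 0.729). Of the 18 tested genes of interferon receptors, JAK kinases, IRF factors and their regulators reported here, none was called between genotypes in limma. In naive cells 2 were higher at an unadjusted p under 0.05, against 3.14% of all genes higher at that level. In memory cells 3 had such a p in either direction, against 16.4% of all genes.

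Other members of the family had log2 fold changes in the same direction in Dock2-deficient mice, below 0 in memory cells for 10 of 10. These were the genes that passed the filter of 16 further IRG and GBP genes. In Dock2-deficient mice 3 of them fell in memory cells and none rose. Tgtp1 and Tgtp2, near-identical effector IRGs whose shared reads make each value uncertain, had log2 fold changes of -1.55 and -1.01 (adjusted p = 0.00182 each), and Gbp10, which overlaps the second row called Gbp6, was at -3.52 (adjusted p = 0.0111). In WT mice 6 of the 10 were below 0 and 4 above, and Tgtp2 alone was called (-0.98 ± 0.21, adjusted p = 0.00749). Gvin1, named after its values were seen, was at 4.54 there (adjusted p = 0.0746), with WT naive libraries 2 and 3 at 1.05 and 0 and the other WT naive libraries at 397.76 and 305.01. Tgtp2 stood at 203, 295, 172 and 258 in WT memory libraries, against 391, 478, 452 and 481 in WT naive libraries, without overlap. The median over the 10 tested genes was -0.74 in Dock2-deficient and -0.34 in WT mice. Between genotypes none was called in naive or in memory cells, and 3 had an unadjusted p under 0.05 in each (limma). In naive cells 2 of the 3 were higher, where 3.14% of all genes were higher at that level. In memory cells 16.4% of all genes reached that level in either direction.

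Further sets of linked genes were set beside the GTPases. Of 15 tested type I interferon-stimulated genes none was called in any of the 5 comparisons (limma), and 1 to 4 had an unadjusted p under 0.05 in each. The count of 4 was for genotype in memory cells, where 16.4% of all genes reached that level. The median log2 fold change was 0.17 in memory against naive cells of Dock2-deficient mice and -0.02 in Dock2-deficient against WT naive cells. Of 10 tested genes of MHC class I and peptide loading, which interferon-gamma also induces, none was called either (limma), with 0 to 3 at an unadjusted p under 0.05. For genotype in memory cells the count was 2, against 16.4% of all genes. The medians of these 10 were -0.21 in memory against naive cells of Dock2-deficient mice and 0.20 in Dock2-deficient against WT naive cells. Among 6 tested inflammasome and linked sensor genes, Zbp1 and Aim2, both sensors of nucleic acid, fell in Dock2-deficient memory against naive cells, with log2 fold changes of -1.45 (adjusted p = 0.00427) and -2.36 (adjusted p = 0.00418). Of 13 tested genes of autophagy conjugation and its partners, which place IRG proteins on vacuoles, 1 was called in that comparison, Gabarapl2 (0.87, adjusted p = 0.0435), and that call held in 7 of 18 fits without a library.

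**Figure D4:**
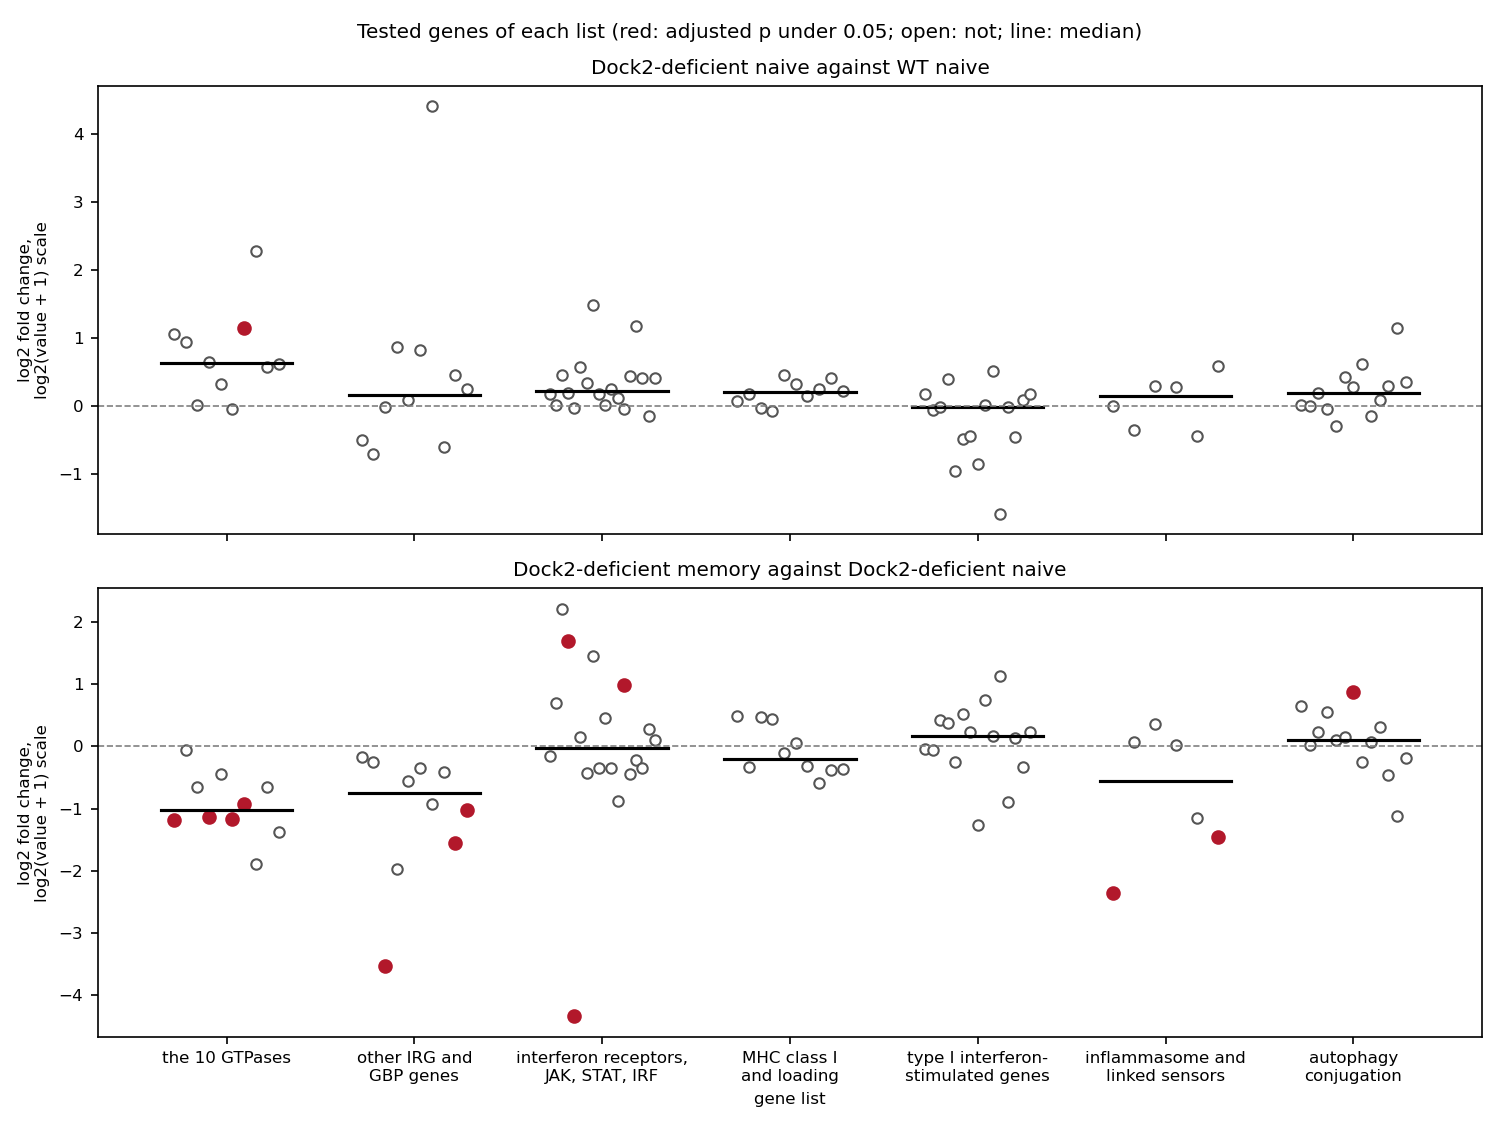
Log2 fold changes on the log2(value + 1) scale (y axis) of each tested gene of the 10 GTPases and 6 other gene lists (x axis), with the median of the list (line) and genes with an adjusted p under 0.05 in red, for Dock2-deficient against WT naive cells (top) and Dock2-deficient memory against naive cells (bottom). Igtp is the red point at the top, and the median of the GTPases is 0.63 there and -1.03 at the bottom.

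Markers of other cell types were measured in the same libraries, because bulk RNA cannot tell fewer cells of a type from less RNA per cell. The summed CD8 T cell markers were at 6111 to 11404 in Dock2-deficient memory, 7264 to 10365 in Dock2-deficient naive, 5295 to 6986 in WT memory and 6819 to 7563 in WT naive libraries. Of 3 gamma delta T cell markers, the receptor constant gene Trdc went the same way as Igtp in 2 comparisons. It was at 19.5 to 45.7 in Dock2-deficient naive libraries against 2.43 to 5.65 in WT naive libraries (log2 fold change 2.73, called). In Dock2-deficient memory libraries it was at 6.89 to 13.6, called lower than in naive cells (-1.52). In WT mice Trdc was called higher in memory cells (1.63), at 8.32 to 18.9, opposite to Igtp. Between genotypes in memory cells Trdc was at -0.43, not called, where Igtp was at 0.75. Its interaction was called, at -3.16. Sox13 and Blk, the other 2, were at 0 in most libraries and at most 2.20. The part of Trdc-expressing cells in the GTPase results was not tested. The 8 myeloid and dendritic cell markers summed to 17.8 to 80.8 in Dock2-deficient memory and 25.8 to 49.2 in WT memory libraries, against 1.89 to 18.3 in Dock2-deficient naive and 1.65 to 5.65 in WT naive libraries. In memory cells the sums were mostly Itgax and Fcer1g, the 2 that passed the filter. Fcer1g was called higher in memory cells of Dock2-deficient (2.96, adjusted p = 0.00670) and WT mice (4.44, adjusted p = 0.000349), and Itgax in those of Dock2-deficient mice (3.84, adjusted p = 0.00336). Cd68 averaged 0.671 in Dock2-deficient memory and 1.46 in Dock2-deficient naive cells, and Adgre1 was at 0 in all 18 libraries. The part of these markers in the GTPase results was not tested. The 4 natural killer cell markers summed to at most 17.4 in Dock2-deficient memory and 35.9 in WT memory libraries, against 4.76 and 2.26 in the naive libraries of the same genotypes. Of these Klrb1c was called higher in WT memory cells (3.64, adjusted p = 0.0111). B cell markers summed to 446 to 1126 in Dock2-deficient naive and 472 to 703 in WT naive libraries, most of it Ighm. In memory libraries they summed to 496 to 863 in Dock2-deficient and 370 to 638 in WT mice. Of the other B cell markers, Cd79b was at most 53.1, Cd79a at most 4.76 and Ms4a1 at most 3.33 in any library. The 4 markers of CD4 and regulatory T cells summed to at most 27.95 in any library.

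Within groups the 10 GTPases varied mostly apart from each other. Over the 18 libraries, after the group mean was taken off each log2 value, the 45 pairs of GTPases had Pearson correlations between -0.39 and 0.61 with a median of 0.07, and 27 pairs were above 0. The highest were Irgm2 with Gbp6 (0.61), Gbp2 with Iigp1 (0.59) and Gbp4 with Gbp9 (0.57). Gbp4 and Gbp9 share 60 exon bases, while Igtp and Irgm2, which share 162, were at 0.08. The part of shared bases in these correlations was not tested. Igtp had the highest correlation with the mean of the others, 0.56. Outside the family, the 6 genes most like the mean deviation of the GTPases were Sntb1 (0.87), Pisd-ps2 (0.85), Gm14085 (0.82), Clcn7 (0.80), Sla2 (0.79) and Cdk2 (0.77). These are descriptions over 18 libraries that share depth and sorting.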

How the data were processed

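RNA of 18 libraries was extracted with a Qiagen kit and made into libraries with Smartseq2, a full-length method that marks no strand, per the labels. The authors deposited 1 table of normalized signal, that is, RSEM expected counts scaled between libraries. bcl2fastq, FastQC, RSEM and mm10 are named in the submitters' processing notes; versions, aligner settings and annotation are not given in the sources used here. Undoing that scaling gave whole reads (within 0.005) for 59.5% to 69.3% of nonzero values per library, so no count model was used. Positions came from GENCODE M21, which held 98.9% of the identifiers.

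Groups came from sample titles. The test was limma 3.58.1 (R 4.3.3) on log2(value + 1): 1 mean per group over all 18 libraries, variances moderated along a trend (14 residual and 6.43 prior degrees of freedom), two-sided tests, Benjamini-Hochberg over the 9437 genes that reached 10 in 4 or more libraries. The fit was tested on simulated data. Values per kilobase, promoter matches and figures used Python 3.11.15 with pandas 2.3.3 and matplotlib 3.10.9. Depth is the sum of expected reads recovered from each library's step. All 10 GTPases are named in every comparison. From the other lists, genes called in a comparison are named, and Irf1, Gvin1 and single cell type markers were named after their values were seen. The members and lists were chosen with earlier results of these data known. Alternatives were other pseudocounts, filters, scalings, weights, libraries left out, a replicate block and a term for sex. The replicate block was genotype and number together for memory against naive and the interaction, and number alone for genotype. Members of 2 of these lists are not reported here and were left out of their counts and sums.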

Additional observations from a re-analysis of the deposited data

Results flagged for a closer look

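Of 43 sets of values (1 gene in 1 group), 7 held a library whose gap to the nearest other was above Dixon's 95% critical value, which chance gives in about 1 in 20. Gbp2 was low in Dock2-deficient memory library 1 (37.3). Irgm1 was high in Dock2-deficient naive library 2 (245.4) and Gbp9 in Dock2-deficient naive library 3 (283.8). Gbp9 was also high in WT memory library 2 (155.2). Irgm2 was high in WT memory library 4 (138.8), which stood apart on the principal components. The second row called Gbp6 was high in Dock2-deficient naive library 5 (16.3) and in WT memory library 4 (29.3), among libraries mostly at 0.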

How the results depend on the processing

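The calls of Igtp, Gbp6 and Gbp9 in Dock2-deficient memory against naive cells held under all 11 alternatives other than single libraries left out, and in all 18 of those. Gbp2 was lost there with no filter (adjusted p = 0.108) and under the replicate block (0.0876). Among naive cells, the call of Igtp was lost, leaving 0 of the 10 GTPases, with no filter (adjusted p = 0.0522), after rescaling to the same total (0.0773), with the fit limited to the libraries compared (0.0633) and with a term for sex; without 1 library the count of GTPases was 0 to 1. Counts over all genes moved past 1.5 times as follows. In memory against naive cells, the 266 calls in Dock2-deficient mice became 148 at a mean of at least 50 and 450 with array weights, and the 238 calls in WT mice became 104 and 377. For genotype in naive cells the 13 calls became 8 with only the libraries compared and 3 with a term for sex. For genotype in memory cells the 5 calls became 12 with a pseudocount of 5, 10 with no filter, 2 at a mean of at least 50, 3 with only the libraries compared, 0 with a term for sex, 40 with array weights, and 3 to 13 without 1 library. For the interaction the 3 calls became 0 with no filter, 1 at a mean of at least 50, 0 under the replicate block, 5 with array weights, 0 without the 2 libraries that stood apart, and 0 to 2 without 1 library.

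Signs turned only for uncalled changes. For genotype in naive cells Gbp9 was at 0.11 under the replicate block and 0.14 with a term for sex, where Irgm2 was at -0.20. For genotype in memory cells rescaling put Irgm1 at -0.18 and Gbp4 at -0.25, a term for sex put Gbp3 at -0.0015, and Irgm2 was at 0.21 with array weights and 0.28 without the 2 libraries that stood apart. In the interaction, rescaling put Gbp4 at -0.25, and the second row called Gbp6 was at 0.53 without those 2 libraries. Without 1 library, log2 fold changes of memory against naive in Dock2-deficient mice spanned -0.19 to 0.27 for Gbp3 and -1.03 to 0 for the second row called Gbp6, and in WT mice -0.32 to 0.42 for Gbp3, -0.31 to 0.0020 for Gbp6 and -1.35 to 0.53 for that row. For genotype they spanned -0.061 to 0.13 for Gbp4 and -0.22 to 0.12 for Gbp9 in naive cells, and -0.052 to 0.25 for Gbp4 and -0.63 to 0.20 for Irgm2 in memory cells. In the interaction they spanned -0.48 to 0.26 for Gbp3, -0.088 to 0.23 for Gbp4, -1.35 to 0.53 for the second row called Gbp6 and -0.95 to 0.27 for Iigp1. The cause of these moves was not tested.

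Whether same-numbered libraries came from the same animal was not settled. Same-numbered naive and memory libraries had correlations of -0.25 to 0.30 in Dock2-deficient and -0.02 to 0.13 in WT mice. In 2 of 5 Dock2-deficient and 2 of 4 WT cases, a naive library correlated best with the memory library of its number. Same-numbered libraries of the 2 genotypes had -0.17 to 0.16 in naive and 0.01 to 0.11 in memory cells. The Dock2-deficient library that reads as female was number 1 in each cell state. These correlations cannot decide the question, and the main fit took the libraries as unpaired. The replicate block changed no call of the 10 GTPases other than that of Gbp2. Iigp1 and Gbp3 had the lowest values per kilobase of the 10, and how far depth limits each gene was not compared.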
